A study of Mus musculus with 15 samples.

Results

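Mia3, Vamp7 and Brox are 3 membrane trafficking genes, taken from the 112 genes that the array's RefSeq identifiers could be matched to. Each was read by 1 probe with 1 spot per array, named by transcript NM_177389 for Mia3, NM_011515 for Vamp7 and NM_027861 for Brox. They were chosen from measured values of these arrays. Mia3 was picked for its differences against wild type (WT) at 1 month, at 6 months and over the mean of the 4 ages. Vamp7 and Brox were picked for their difference between 6 months and 1 month. Those values are therefore given as descriptions without a test.

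The arrays measured total RNA of brain from APP/PS1 mice at 1, 3, 6 and 9 months of age and from WT mice, all on a C57BL background. APP/PS1 mice carry transgenes for mutant amyloid precursor protein and presenilin 1 and form amyloid plaques, and the labels do not name the promoter of the transgenes. The design text speaks of age-matched WT controls, but no WT sample carries an age, and genotype cannot be told apart from age where WT is the comparator. Sample labels record 1 male and 2 females in each group, although the design text lists males alone. Of 15 samples, 14 have a scanner file used here. In each of the 1-month, 3-month and 6-month groups the arrays of replicates 2 and 3 were near-identical, and each such pair was averaged and counted as replicate 2. This left 2 samples at 1 month, 2 at 3 months, 2 at 6 months, 3 at 9 months and 2 WT samples. The share of spots well above background ran from 68.1% to 82.4% over the arrays. The 9-month arrays were scanned at 354 V, which no other group shared, so scan and age cannot be told apart at 9 months. None of the 28 cell type markers looked for (neuron, glia, vessel, choroid plexus, blood and fibroblast genes) was matched to a named probe, so the labelled tissue and the cell make-up could not be checked. In RNA of a bulk tissue, fewer cells of a type and less RNA per cell cannot be told apart.

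Secretory and endosomal traffic moves cargo in membrane carriers that bud from one compartment and fuse with the next. Mia3, also called TANGO1, is a transmembrane protein of endoplasmic reticulum exit sites that helps load bulky cargo such as procollagen into COPII carriers. Vamp7, also called TI-VAMP, is a vesicle SNARE of late endosomes and lysosomes that drives their fusion with each other and with the plasma membrane, and in neurons it takes part in neurite outgrowth. Brox carries a Bro1 domain of the kind found in ALIX, and in human cells it binds ESCRT-III proteins, which constrict and cut membranes. Lysosome-related traffic is of interest in Alzheimer models because amyloid precursor protein is cut and amyloid cleared along the endosomal route.

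Promoter windows in the RefSeq-based table for GRCm38.p6 run from 250 bases before to 50 bases after a gene's start, and 2 of the 3 genes had one. They are shown because they carry short motifs of the lysosomal and endoplasmic reticulum stress programmes, and both lie on the minus strand of chromosome 1. Capitals mark TCACGTGA in Brox, the core of the CLEAR element bound by TFEB, a regulator of lysosomal genes, and TGACGTG in Mia3, a core of the unfolded protein response element.
Brox, chr1:183296959-183297258, minus strand: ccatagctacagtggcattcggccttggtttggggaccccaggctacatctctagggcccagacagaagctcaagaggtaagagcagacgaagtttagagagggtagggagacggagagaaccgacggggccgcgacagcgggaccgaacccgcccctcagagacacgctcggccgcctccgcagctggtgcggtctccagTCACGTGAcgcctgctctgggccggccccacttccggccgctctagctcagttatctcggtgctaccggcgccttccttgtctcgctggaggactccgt
Mia3, chr1:183369516-183369815, minus strand: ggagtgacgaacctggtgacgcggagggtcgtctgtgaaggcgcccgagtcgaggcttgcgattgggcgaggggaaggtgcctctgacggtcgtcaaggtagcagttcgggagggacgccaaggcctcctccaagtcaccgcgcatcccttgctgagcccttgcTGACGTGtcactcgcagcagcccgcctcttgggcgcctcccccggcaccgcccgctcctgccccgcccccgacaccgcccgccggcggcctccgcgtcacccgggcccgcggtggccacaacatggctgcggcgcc
The CLEAR core letters started at position -49 relative to the Brox start and contain the E-box CACGTG. Of 32851 promoter windows of the same length, 0.974% held these 8 letters on either strand and 7.15% held the E-box. A second Brox window further upstream in the same table held neither. The TGACGTG letters started at position -86 relative to the Mia3 start, and 2.01% of all windows held them on either strand. Neither printed window held TGACGTCA, a cyclic AMP response element (1.79% of windows), or the letters TATAAA (13.6% of windows). GGGCGG, a GC box, occurred 3 times in the Mia3 window and 1 time in the printed Brox window (35.7% of windows had it). These motifs were looked for after the sequences had been seen, and a match of letters is not a bound site.

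The Mia3 spot was dim but measurable, and it was dimmest in WT. Its processed signal, which is background-subtracted but not scaled between arrays, was 109, 117 and 113 intensity units at 1 month (replicates 1 to 3). It was 72.5, 90.9 and 85.7 at 3 months, 95.01, 155 and 154 at 6 months and 109.6, 138 and 135 at 9 months. In the WT arrays it was 64.8 and 59.9. All APP/PS1 arrays lay above both WT arrays, the closest being replicate 1 at 3 months. Mia3 was chosen for differences against WT, so this separation is a description. The near-identical arrays are listed singly here and are not separate observations. How many of all features separate in the same way was not counted. The scanner software gave an error of 10.1% to 11.9% of the signal for single Mia3 spots. The spot was 3.79 to 8.17 times as bright as its local background and was well above background on all 14 arrays.

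On the scaled log2 axis, where 0 is the 75th percentile of the array, Mia3 averaged -2.10 ± 0.020 at 1 month, -2.30 ± 0.14 at 3 months and -2.05 ± 0.25 at 6 months (SD, n = 2 each). It averaged -2.01 ± 0.12 at 9 months (SD, n = 3) and -2.70 ± 0.087 in WT (SD, n = 2). The 6-month samples were apart from each other, at -2.23 in replicate 1 and -1.87 in the averaged replicate 2. From high to low the group means ran 9 months, 6 months, 1 month, 3 months and WT. The samples of 9 and 6 months overlapped, as did those of 6 and 1 months, and the steps between them were 0.035 and 0.053, below the fitted SD of 0.14. The samples of 1 and 3 months did not overlap, with a step of 0.20. The last step, from 3 months down to WT, was 0.40 and also had no overlap. Groups of 2 samples separate easily, and how many of all features do so was not counted.

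Against WT, Mia3 differed by 0.60 (SE 0.14) on the log2 scale at 1 month, a fold of 1.51, against -0.050 with normexp background correction and scaling on the 75th percentile. At 6 months it differed by 0.65 (SE 0.14), a fold of 1.57. The difference was 0.40 (SE 0.14) at 3 months and 0.69 (SE 0.13) at 9 months, the second a fold of 1.61. These 4 differences share the same 2 WT samples, so they are not 4 separate observations of WT. Among the 9658 features in the same of 5 brightness classes, the median difference against WT lay between -0.016 and 0.060 at the 4 ages. Against 1 month, Mia3 differed by -0.20 (SE 0.14) at 3 months, 0.053 (SE 0.14) at 6 months and 0.088 (SE 0.13) at 9 months. At 6 against 3 months it differed by 0.25 (SE 0.14).

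**Figure D1:**
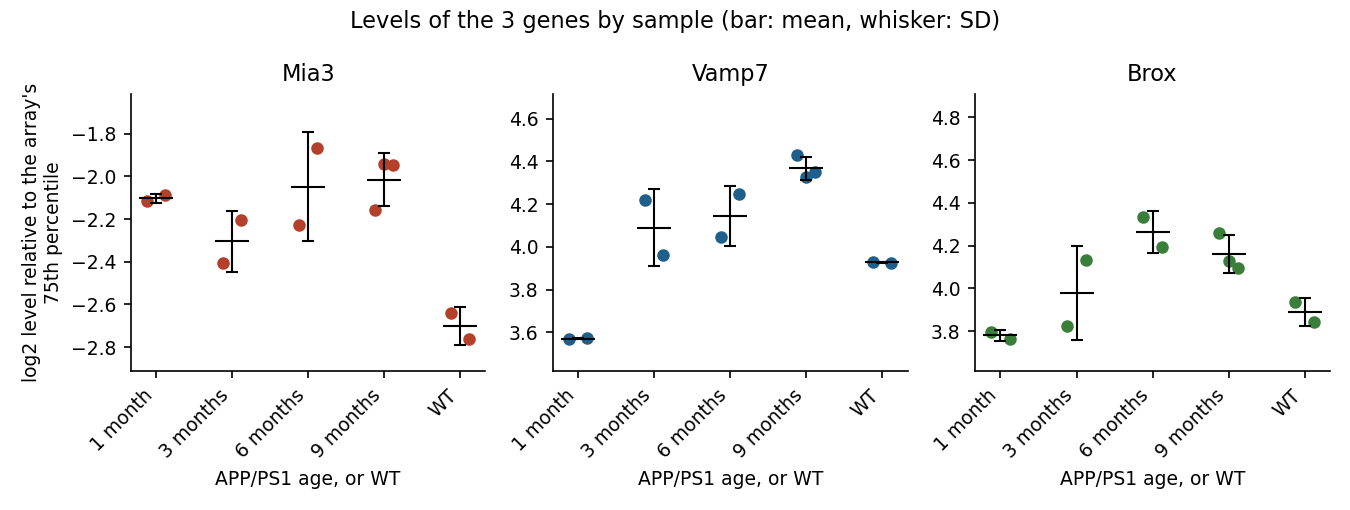
Scaled log2 level of Mia3, Vamp7 and Brox in each of the 11 samples by group, with the APP/PS1 ages from left to right and WT last; points are samples, bars are group means and whiskers are SD. Mia3 is lowest in WT (mean -2.70), an order that normexp with the 75th percentile did not keep, whereas Vamp7 and Brox are lowest at 1 month (means 3.57 and 3.78), though Brox is 0.0061 to 0.018 above WT there with quantile normalization and the 3 normexp settings.

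How far the Mia3 difference from WT depended on background handling was examined because its spot is dim. With normexp background correction and quantile normalization the difference was 0.25 at 1 month, 0.14 at 3 months, 0.29 at 6 months and 0.31 at 9 months. With normexp and an offset of 0 it was 0.36, 0.21, 0.42 and 0.45 in the same order of ages. With normexp and scaling on the 75th percentile it was -0.050, -0.057, 0.013 and 0.042. In that last setting the median of all features moved too, to -0.24, -0.16, -0.25 and -0.25. Relative to that median the group mean of Mia3 stayed above WT at each age, but by less than with the processed signal. Single samples were not all apart. Replicate 1 at 3 months had Mia3 at -1.68 and a median of -1.33, and so lay further below its median than WT replicate 2 (-1.39 and -1.09). The SE of the 3-month difference was 0.14 in that setting. In the same setting the WT samples stood apart from each other, with Mia3 at -1.79 and -1.39 and the median of all features at -1.37 and -1.09, while that median was -1.44 to -1.33 in the 9 APP/PS1 samples. The unscaled, uncorrected median pixel intensity of the Mia3 spot was 147, 168 and 172 at 1 month, 118, 135 and 136.5 at 3 months, 141, 197 and 206.5 at 6 months and 161, 196 and 180.0 at 9 months. It was 114 and 106 in WT, below every APP/PS1 array, with local background between 24 and 30 throughout. The size of the Mia3 difference therefore varied with the correction. Its spot was dimmer in the 2 WT arrays before any correction, but these intensities are not scaled between arrays. The 75th percentile of the processed signal was 404 and 407 units in WT and 384 to 407 at 3 months. It was 473 to 492 at 1 month, 446 to 566 at 6 months and 489 to 531 at 9 months. Mia3 was chosen for differences against WT, so its low WT intensity is a description.

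**Figure D2:**
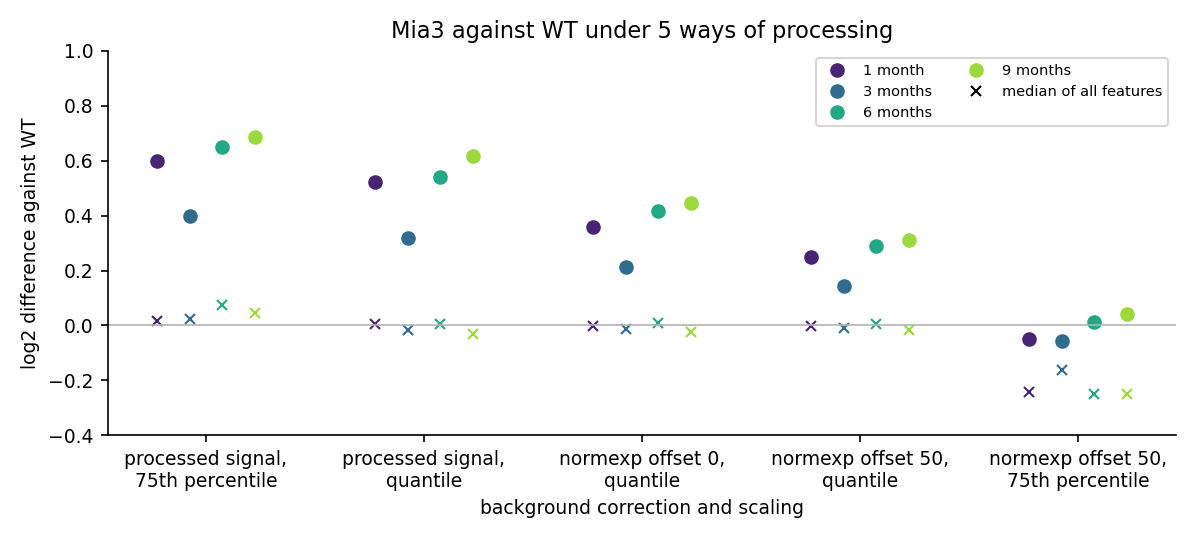
Log2 difference of Mia3 against WT at the 4 ages (filled points, coloured by age) under 5 combinations of background correction and scaling, with the median of all features in the same setting as crosses. Mia3 lies above the crosses in all 5 settings, and it sits near 0 (-0.057 to 0.042) only where the crosses fall to between -0.25 and -0.16.

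**Figure D3:**
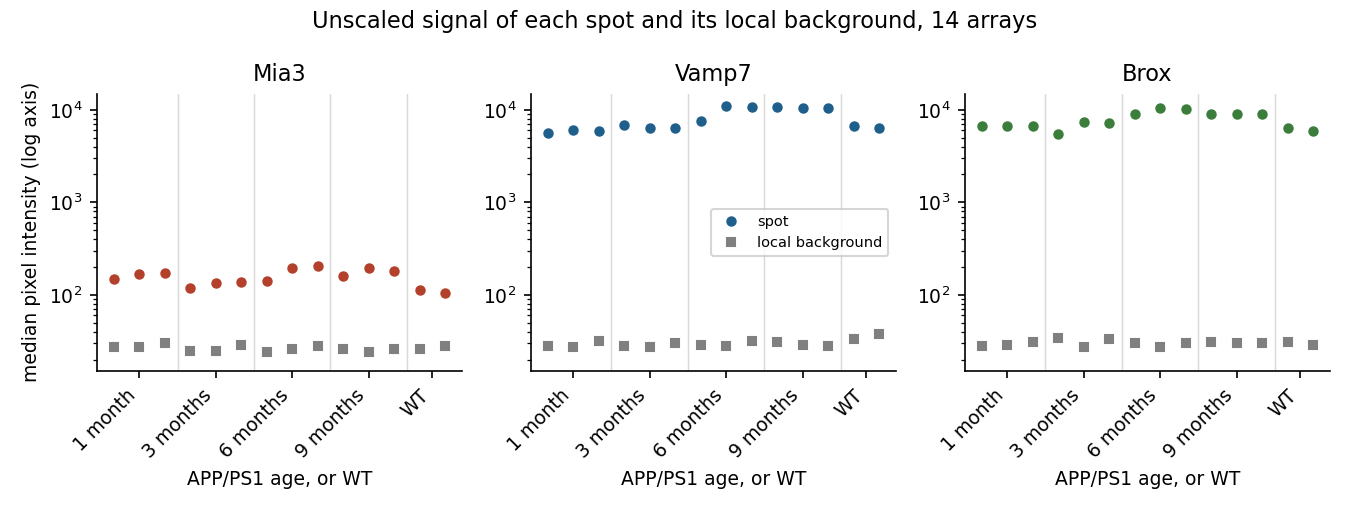
Median pixel intensity of the spot (circles) and of its local background (grey squares) on a log axis for each of the 14 arrays, grouped by APP/PS1 age with WT last. Mia3 runs from 106 to 206.5 over a background of 24 to 30, whereas Vamp7 and Brox are at least 160.5 times as bright as their background.

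Vamp7 was lowest in the youngest APP/PS1 mice and highest in the oldest. Its processed signal was 5608, 5874 and 5767 intensity units at 1 month, 7146, 6304 and 6360.3 at 3 months, 7365, 10710.2 and 10694 at 6 months and 10532, 10655 and 10606 at 9 months. In WT it was 6149.9 and 6181. All 3 arrays at 1 month lay below WT, and the arrays at 3 months lay only a little above it. At 6 months the spot of replicate 1 was much dimmer than those of replicates 2 and 3, although scaling by the 75th percentile brought the samples closer.

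On the scaled log2 axis Vamp7 stood at 3.57 and 3.57 at 1 month, 4.22 and 3.96 at 3 months, 4.05 and 4.25 at 6 months and 4.43, 4.33 and 4.35 at 9 months. The WT samples were at 3.93 and 3.93. From high to low the group means ran 9 months (4.37 ± 0.054, SD, n = 3), 6 months (4.15 ± 0.14, SD, n = 2), 3 months (4.09 ± 0.18, SD, n = 2), WT (3.93 ± 0.0018, SD, n = 2) and 1 month (3.57 ± 0.0022, SD, n = 2). The near-equal values within WT and within 1 month are smaller in spread than the 10% error the scanner software gives for a Vamp7 spot. The samples of 6 and 3 months overlapped, and their step of 0.056 was below the fitted SD of 0.11, but with the 3 normexp settings the step was 0.17. The steps from 9 to 6 months (0.22), from 3 months to WT (0.16) and from WT to 1 month (0.36) had no overlap between samples. As for Mia3, groups of 2 or 3 samples separate easily, and the share of all features that do so was not counted.

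The 6-month against 1-month difference that chose Vamp7 was 0.58 (SE 0.11) on the log2 scale, a fold of 1.49. The same gene was 0.80 (SE 0.098) higher at 9 than at 1 month and 0.52 (SE 0.11) higher at 3 than at 1 month, comparisons that share the 1-month samples with the one that chose it. At 1 month Vamp7 stood 0.36 (SE 0.11) below WT. Bright features as a class were also lower at 1 month, with a median of -0.12 against WT over the 9659 features of the same brightness class. That class was 0.075 higher at 6 than at 1 month, and 0.12 higher both at 3 and at 9 months than at 1 month. With quantile normalization Vamp7 differed by 0.41 at 3 against 1 month, 0.68 at 9 against 1 month and -0.24 at 1 month against WT. With normexp and quantile normalization these were 0.35, 0.67 and -0.28.

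Comparisons over samples that played no part in choosing Vamp7 and Brox were 3 months against WT and 9 months against WT. In a limma fit over all 48294 features, with Benjamini-Hochberg adjustment and a threshold of 0.05, Vamp7 was higher at 9 months than in WT by 0.44 (SE 0.098, 95% interval 0.21 to 0.67, limma adjusted p = 0.013). This is a fold of 1.36, and all 3 samples at 9 months lay above both WT samples, as they also did for Brox, which did not pass. The call was lost without WT replicate 1 (0.44, limma adjusted p = 0.060) and without WT replicate 2 (0.44, limma adjusted p = 0.061), while the difference itself stayed between 0.39 and 0.51 over 21 alternatives. Many of these alternatives cannot change that difference: the filters, the averaging, the probe choice and the samples of other ages do not enter it. Its range comes from background correction, scaling, the labelled sex and leaving out WT or 9-month samples. By limma 1 of the 2 genes was called, where 30.9% of all features were called, 17.4% higher and 13.5% lower. A call was common there, and scan setting and age cannot be told apart. Of the features called in it, 56.4% were higher, against 31.8% with normexp and the 75th percentile.

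At 3 months against WT, Vamp7 did not pass (0.16, SE 0.11, 95% interval -0.088 to 0.41, limma adjusted p = 0.38). Brox did not pass either (0.088, SE 0.12, 95% interval -0.19 to 0.37, limma adjusted p = 0.68). By limma 0 of the 2 genes were called, also at an unadjusted p under 0.05, where 10.2% of all features were called, 6.44% higher and 3.72% lower. Of the features called, 63.4% were higher, against 51.4% with normexp and quantile normalization and 52.7% with offset 0. The intervals still allow a rise of Vamp7 by 0.41 or of Brox by 0.37 on the log2 scale. When scan voltage was fitted as a block on unaveraged arrays, leaving 9 months out, Vamp7 differed by 0.12 (SE 0.10) and Brox by 0.14 (SE 0.11).

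**Figure D4:**
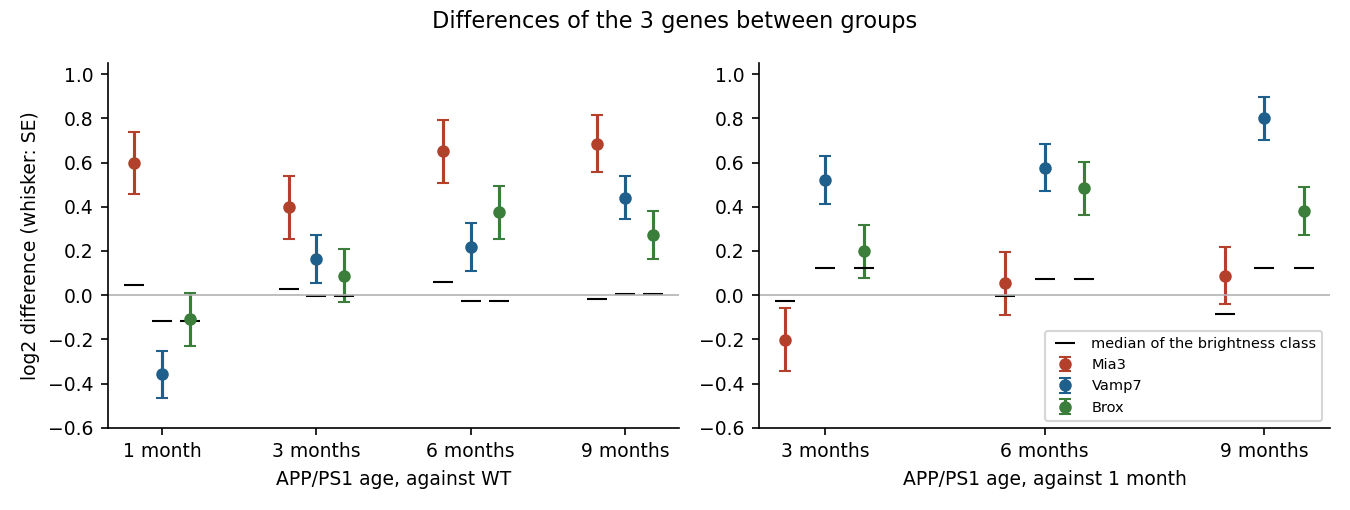
Log2 differences of Mia3, Vamp7 and Brox against WT at the 4 ages (left) and against 1 month at 3, 6 and 9 months (right), with SE as whiskers; black dashes are the median of the features in the same brightness class. Mia3 is 0.40 to 0.69 above WT at the 4 ages (-0.057 to 0.042 with normexp and the 75th percentile). Vamp7 passes from -0.36 at 1 month to 0.44 at 9 months (-0.24 and 0.45 with quantile normalization).

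The group means of Brox lay within 0.11 of WT at 1 and 3 months and further above WT at 6 and 9 months. Its processed signal was 6575, 6670.2 and 6617 intensity units at 1 month, 5429, 7272 and 6996 at 3 months, 8979, 10445 and 10211 at 6 months and 9367, 9263 and 8898 at 9 months. In WT it was 6181 and 5834. Every array at 6 and 9 months was brighter than every array of the other groups before scaling. After scaling this did not hold, since the averaged replicate 2 at 3 months (4.134) lay above replicates 2 and 3 at 9 months (4.126 and 4.096). The 3-month arrays spanned both sides of WT, with replicate 1 below and the others above. On the scaled log2 axis the group means of Brox covered a range of 0.48, and 30.4% of all features had a smaller range. For Mia3 (range 0.69) that share was 51.8%, and for Vamp7 (range 0.80) it was 61.4%.

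After scaling, Brox stood at 3.80 and 3.76 at 1 month, 3.82 and 4.13 at 3 months, 4.33 and 4.19 at 6 months, 4.26, 4.13 and 4.10 at 9 months and 3.94 and 3.84 in WT. From high to low the group means ran 6 months (4.26 ± 0.098, SD, n = 2), 9 months (4.16 ± 0.088, SD, n = 3), 3 months (3.98 ± 0.22, SD, n = 2), WT (3.89 ± 0.066, SD, n = 2) and 1 month (3.78 ± 0.025, SD, n = 2). Samples of neighbouring groups overlapped at each step except the last, where WT and 1 month differed by 0.11 against a fitted SD of 0.12. With quantile normalization and with each normexp setting that step turned, and Brox at 1 month was 0.0061 to 0.018 above WT. In the main processing the 9659 features of its brightness class had a median difference of -0.12 at 1 month against WT, about that of Brox (-0.11).

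The 6-month against 1-month difference that chose Brox was 0.48 (SE 0.12), a fold of 1.40. Against WT it was 0.37 (SE 0.12) higher at 6 months. Among the comparisons that did not choose it, 9 months against WT gave 0.27 (SE 0.11, 95% interval 0.017 to 0.53), which did not pass (limma adjusted p = 0.10). Over 21 alternatives that limma adjusted p ran from 0.051 to 0.32. All 3 samples at 9 months lay above both WT samples, which with 3 and 2 samples is no test.

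The 9-month and 3-month samples were not used to choose Vamp7 or Brox, and the difference between them did not enter the choice of Mia3. At 9 against 3 months Mia3 differed by 0.29 (SE 0.13, 95% interval -0.013 to 0.59, limma adjusted p = 0.14), Vamp7 by 0.28 (SE 0.098, 95% interval 0.050 to 0.51, limma adjusted p = 0.071) and Brox by 0.18 (SE 0.11, 95% interval -0.071 to 0.44, limma adjusted p = 0.25). By limma 0 of the 3 genes were called and 1, Vamp7, had an unadjusted p under 0.05, where 28.9% of all features were called, 14.5% higher and 14.3% lower. Vamp7 passed in 5 of 21 alternatives, and the lowest limma adjusted p was 0.0076 with the 14 arrays as separate samples, which treats the near-identical arrays as independent. Mia3 came to 0.17 with normexp and quantile normalization (limma adjusted p = 0.11) and to 0.099 with normexp and the 75th percentile (limma adjusted p = 0.66). Replicate 1 at 3 months was the highest Vamp7 sample and the lowest Brox and Mia3 sample of that age. Without it Vamp7 differed by 0.41 (limma adjusted p = 0.048), Mia3 by 0.19 (limma adjusted p = 0.50) and Brox by 0.026 (limma adjusted p = 0.91). Without the averaged replicate 2 at 3 months, Vamp7 differed by 0.15 (limma adjusted p = 0.35), Mia3 by 0.39 (limma adjusted p = 0.14) and Brox by 0.34 (limma adjusted p = 0.074).

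The labelled sexes split each group into replicate 1, a male, and the other samples, females. For Mia3 the male minus female difference was -0.029, -0.20, -0.36 and -0.21 from 1 to 9 months and 0.12 in WT. Vamp7, an X-linked gene in the reference table, had male minus female differences of -0.0031, 0.26, -0.20 and 0.091 from 1 to 9 months and 0.0025 in WT. Brox had differences of 0.035, -0.31, 0.14 and 0.15 at these ages and 0.093 in WT. With the labelled sex as an added term over 5 male and 6 female samples, a fit chosen after seeing the data, Mia3 differed by -0.14 (SE 0.075, 95% interval -0.32 to 0.038, limma adjusted p = 0.64) between males and females. Vamp7 differed by 0.033 (SE 0.069, 95% interval -0.13 to 0.20, limma adjusted p = 0.89) and Brox by 0.029 (SE 0.077, 95% interval -0.16 to 0.21, limma adjusted p = 0.91). None of the 3 genes was called by limma, also at an unadjusted p under 0.05, where 0% of the 48294 features were called and 3887 had an unadjusted p under 0.05.

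The 3 genes did not move as one. Over the 11 samples the Pearson r of log2 levels was 0.66 for Vamp7 with Brox, which were chosen on the same comparison, 0.41 for Mia3 with Brox and 0.27 for Mia3 with Vamp7. These are descriptions over samples that share groups and scan settings. Among the 84 other genes with a symbol, Vamp7 was most like Jrkl (r = 0.90), B020031M17Rik (r = 0.86) and Btbd35f4 (r = 0.81), and least like E330014E10Rik (r = -0.88). Btbd35f4 was well above background on 7 of the 14 arrays. Brox was most like Hmgcs1, which encodes an enzyme of cholesterol synthesis (r = 0.80), B020031M17Rik (r = 0.79) and Gm10488 (r = 0.75), and least like Gm21953 (r = -0.72). Mia3 was most like Vmn1r186, a pheromone receptor gene (r = 0.84), Ssty2, a Y-linked gene of spermatids (r = 0.82), and 4930526I15Rik (r = 0.71), and least like the cytoskeletal actin gene Actb (r = -0.81). Vmn1r186 and Ssty2 were well above background on 8 and 4 of the 14 arrays, so their levels are partly bounds. Among all features, 533 had an r above 0.9 with Vamp7, 107 with Mia3 and 98 with Brox.

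Mia3 and Brox lie close together on chromosome 1 of the reference table (GRCm38.p6), with Aida, an axin-interacting protein gene, between them. Aida had a named probe, and its group means were 2.08 at 1 month, 1.97 at 3 months, 2.10 at 6 months, 2.27 at 9 months and 2.07 in WT. At 6 against 1 months it differed by 0.025 (SE 0.14), beside 0.48 for Brox. Taf1a, Disp1 and Hhipl2 are other named genes of the same stretch and were picked after their values had been seen. Hhipl2 had group means within 0.033 of each other, and Disp1 within 0.19. Because of how they were picked, these are given as descriptions. Aida, a neighbour by the rule, did not pass the limma test in the comparisons of 3 months with WT, 9 months with WT and 9 with 3 months. Of all features 10.2%, 30.9% and 28.9% were called there, in that order, and Brox was called in none of the comparisons either. At 3 months against WT, Taf1a, a subunit of the RNA polymerase I factor SL1, differed by 0.22 (SE 0.088). On the X chromosome the nearest named genes were Spry3 and Tmlhe, also picked after their values had been seen. Spry3, next to Vamp7 among protein-coding genes, had means of -0.064, 0.44, 0.34 and -0.50 from 1 to 9 months and 0.23 in WT, so at 9 months it was low where Vamp7 was high. At 9 months against WT Spry3 differed by -0.73 (SE 0.092), given as a description because of how it was picked. In that comparison 30.9% of all features were called, and scan and age cannot be told apart. Tmlhe, which encodes an enzyme of carnitine synthesis, had means of 0.67, 0.66, 0.89 and 0.78 from 1 to 9 months and 1.00 in WT. At 9 months against WT Tmlhe differed by -0.23 (SE 0.088), also as a description.

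**Figure D5:**
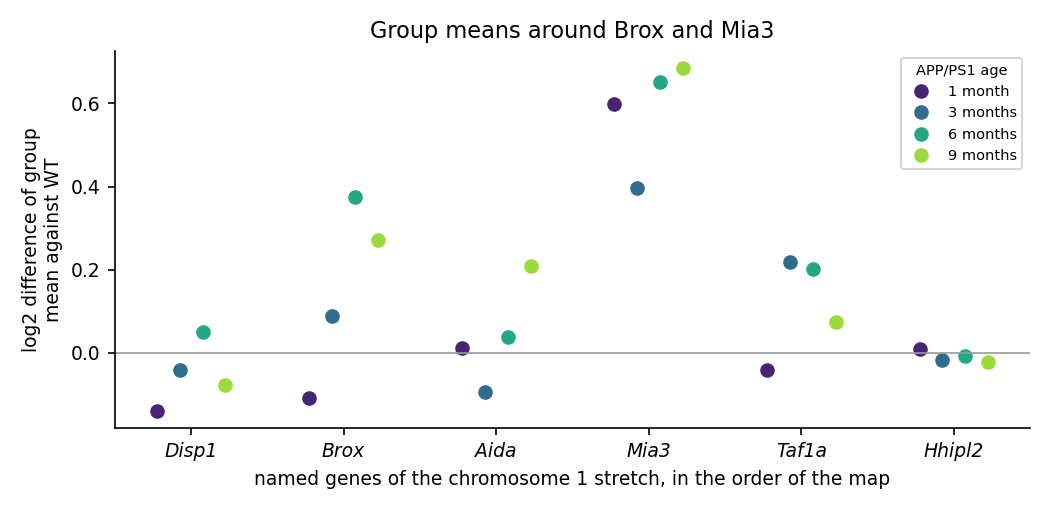
Log2 difference of the group mean against WT for the 6 named genes of the chromosome 1 stretch around Brox and Mia3, in map order, with 1 point per APP/PS1 age. Mia3 lies 0.40 to 0.69 above WT (-0.057 to 0.042 with normexp and the 75th percentile) and Brox reaches 0.37 at 6 months, while Taf1a reaches 0.22 at 3 months, Aida reaches 0.21 at 9 months and Hhipl2 stays within 0.023 of WT.

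Of the 92 other trafficking genes looked for (SNARE genes, endoplasmic reticulum exit genes, ESCRT and Bro1 genes and Vamp7 partners), 0 were matched to a named probe, so no count of the wider pathway can be given. The other 59593 probes carry array codes and were not assigned to genes here.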

How the data were processed

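Total brain RNA was labelled with Cy3 and hybridised to Agilent arrays of 1 colour, as the labels' protocols state. Each deposited spot intensity came from Agilent Feature Extraction, version 10.7.1.1, per the submitters' processing notes. The processed signal used is background-subtracted within an array, per the file headers. Flags of 0 or 1 for each spot are other deposited values. A deposited value table equalled the local background intensity of the scanner files and was not used. The third WT sample has no scanner file used here and entered no comparison.

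Arrays of one group whose residuals over the negative probes correlated above 0.5 were averaged. These were 3 pairs (r from 0.80 to 0.83). In 88 further pairs r was 0.24 or less. Nothing in the labels says whether they are repeated measurements. P-values measure the spread between these samples, which may be technical. The scanner voltage was 356 V for WT and for replicates 1 and 2 of the younger ages, and 355 V for their replicate 3.

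Control and negative spots were left out, and each array's 75th percentile (384 to 566 units) was subtracted on the log2 scale. A probe was kept if well above background on at least 3 arrays, giving 48294 features, with the brightest probe per gene. All 3 members passed on every array. Group means were fitted over 11 samples with limma 3.58.1 in R 4.3.3, and the fit was tested on simulated data. There, 100 of 48294 features were changed by 0.5 on the log2 scale and 100 by 1 at 3 months against WT. The fit called 0% of the changes of 0.5 and 28% of the changes of 1. Far fewer features were changed there than were called in the data (10.2% to 30.9% of all features), which makes the adjustment stricter. These recovered shares therefore do not carry over to the tests above, where Vamp7 passed with a difference of 0.44 at 9 months against WT. A gene that did not pass may still differ. The number of arrays limits the precision. The members, lists and tests were chosen with earlier results of these data known. Genes named beside the members followed a rule: the 3 most alike and the 1 least alike by r, and neighbours up to 2 genes away. Taf1a, Disp1, Hhipl2, Spry3 and Tmlhe were added after their values were seen. Symbols come from RefSeq identifiers (116 probes, 112 symbols). The planned normexp correction used the median spot signal, since the files hold no mean signal. Alternatives covered background correction, scaling, the filter, the averaging, the samples in the fit, the labelled sex and leaving out each sample.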

Additional observations from a re-analysis of the deposited data

How the results depend on the processing

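Signal over background was low for Mia3 (3.79 to 8.17 times). Normexp with the 75th percentile and normexp with offset 0 were chosen after seeing the data. With the 75th percentile Mia3 turned to -0.050 at 1 month, -0.057 at 3 months and -0.013 over the mean of the 4 ages against WT, where the median of all features fell by 0.24, 0.16 and 0.21. Brox at 1 month against WT turned to 0.0061 (normexp with quantile normalization), 0.0099 (quantile normalization), 0.018 (normexp with the 75th percentile) and 0.0062 (normexp with offset 0). Mia3 at 9 against 6 months turned to -0.026 with 14 arrays. The cause was not tested. Vamp7 at 9 against 3 months passed the limma test with normexp and quantile normalization (0.31, adjusted p = 0.028), 14 arrays (0.32, adjusted p = 0.0076), probes well above background on all arrays (0.28, adjusted p = 0.047, with fewer features tested) and normexp with offset 0 (0.31, adjusted p = 0.044).

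The 4909 features called at 3 months against WT became 10428 with 14 arrays, 166 with the groups compared alone, 2558 without the 9-month samples, 7835 with unaveraged arrays, no 9-month arrays and scan voltage as a block together, and 2241 with normexp and the 75th percentile. The 13939 called at 9 against 3 months became 8417 in that last setting. Leaving out each of the 11 samples in turn gave 2149 (without replicate 1 at 3 months) to 5128 features at 3 months against WT, with 2703 and 2928 without WT replicates 1 and 2. It gave 9905 (without WT replicate 1) to 15515 at 9 months against WT and 7485 (without replicate 1 at 3 months) to 14612 at 9 against 3 months. Vamp7 ranged from 0.035 to 0.29, 0.41 to 0.46 and 0.15 to 0.41 in these comparisons, and Brox from -0.068 (without replicate 2 at 3 months, limma adjusted p = 0.76) to 0.24, 0.22 to 0.32 and 0.026 to 0.34. Mia3 at 9 against 3 months ranged from 0.19 to 0.39. Vamp7 lost its call at 9 months against WT without either WT sample (0.44 each, limma adjusted p = 0.060 and 0.061) and gained one at 9 against 3 months without replicate 1 at 3 months (0.41, limma adjusted p = 0.048). No paired analysis was possible because all titles carry the same replicate number and replicates were numbered in accession order. A term for the labelled sex, added after seeing the data, changed no call of the 3 genes (Vamp7 at 9 months against WT 0.45, limma adjusted p = 0.019).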
